A study of Mus musculus with 3 samples.

Results

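Messenger RNA is spliced by small nuclear ribonucleoproteins (snRNPs), and the choice of exons is set by 2 large groups of RNA-binding proteins, the SR proteins and the heterogeneous nuclear ribonucleoproteins (hnRNPs). The genes of these 3 families were followed here in mouse CD4+ T cells before and after stimulation, with and without intraflagellar transport protein 20 (IFT20). They were taken by symbol, as every gene whose name begins with Srsf and a digit, with Hnrnp or with Snrp and that had at least 10 unique molecular identifiers (UMIs, tags that count captured RNA molecules) over the 3 libraries. All 43 genes with such a symbol met that minimum, namely 11 SR, 20 hnRNP and 12 snRNP genes, out of 13898 genes that met it and 31053 genes listed. Identifiers and symbols of all 43 were the same in GENCODE M21, an annotation of the mouse assembly GRCm38.

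As background, the snRNPs are built around small nuclear RNAs that carry a ring of Sm proteins and recognise splice sites and the branch point. SR proteins carry stretches rich in arginine and serine, bind exons and mostly favour their inclusion, whereas many hnRNP proteins oppose inclusion. In T cells, the best known splicing switch is that of CD45, the phosphatase encoded by Ptprc, whose variable exons are skipped in activated cells through hnRNP L and hnRNP LL.

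Naïve CD4+ T cells were enriched from spleens of C57BL/6 mice, and live cells negative for 7-AAD and positive for CD3 and CD4 were sorted for droplet sequencing. The library named 0hr-WT came from Ift20 f/f mice, whose cells were given DPBS only (unstimulated WT). The library named 24hr-WT came from Ift20 f/f cells kept for 24 h with antibodies to CD3 and to CD28, 1 μg/mL of each (stimulated WT). The library named 24hr-KO came from Ift20 f/f CD4 cre mice, in which the Cd4 promoter drives Cre, stimulated in the same way (IFT20-KO). All 3 groups carry the floxed Ift20 allele, and both WT groups lack Cre. The unstimulated library was taken at 0 h, and no library was kept for 24 h without antibodies. Time in culture and stimulation therefore cannot be told apart in the ratios called with stimulation below. How many mice gave each library is not given in the sources used here. The labels name a 5′ kit for these libraries and the study's methods a 3′ kit, which read opposite ends of a transcript.

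With 1 library per group no value has a replicate, so no test was made, and the 95% intervals cover counting error only. Barcodes with over 200 genes and less than 15% of UMIs from mitochondrial genes were kept, namely 8031, 9903 and 13920 cells of the 0hr-WT, 24hr-WT and 24hr-KO libraries. They held 37133949, 116979076 and 106435143 UMIs, at medians of 4627, 12167 and 5014.5 UMIs per cell, so stimulated WT cells held most UMIs each. Depth, shallow and deep below refer to UMIs per cell. The parts of RNA content and of sequencing in it were not tested. Of the barcodes, 125 were shared by the WT libraries, and the IFT20-KO library shared 141 with unstimulated and 207 with stimulated WT. All 7 T cell markers tested had UMIs in every library, and both platelet markers were at 0. Cd8b1 of CD8 T cells was at 28.6, 9.04 and 11.2 CPM (UMIs per 1000000 UMIs of the library) while Cd8a was at 0.162, 0.120 and 0.291 CPM, and Cd79b of B cells reached 2.48 CPM. Of 5 myeloid markers 4, 2 and 2 had UMIs, with Cd14 at 0 and a summed level of 0.180 to 0.727 CPM, of 3 NK cell markers 3, 1 and 2 had UMIs, with 0.0171 to 0.727 CPM, and of 4 erythroid markers 0, 0 and 1. The part of such cells in the ratios was not tested. The level of a gene is given in CPM, not divided by gene length because each molecule is tagged once. Ift20, the targeted gene, was at 64.4, 76.0 and 6.60 CPM in these libraries.

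The splicing factor genes were together higher after stimulation. They took 0.845% of all UMIs in unstimulated WT cells and 1.49% in stimulated WT cells, and 39.1 and 175 UMIs per cell. Over the 43 genes, the median log2 ratio of CPM, stimulated over unstimulated WT, was 0.65, against −0.11 over all 13898 genes, and 36 genes were higher and 7 lower. Among genes of like abundance, the 3435 with at least 50 CPM in a library, the median was 0.29, with 24.2% at least 2-fold higher and 15.2% lower. At least 2-fold higher were 15 of the 43 genes (34.9%), while 18.7% of all genes were, and at least 2-fold lower were 2 (4.65%), while 23.7% of all genes were. The latter 2, Srsf12 and Snrpn, were close to undetected in every library. Of the other 41 genes, which reached 20 CPM in at least 1 library, 15 were at least 2-fold higher and 0 at least 2-fold lower, against 18.8% and 16.5% of the 6123 genes at that level. For these 41 genes, the counting interval reached at most 7.10% above and 6.74% below the CPM.

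**Figure D1:**
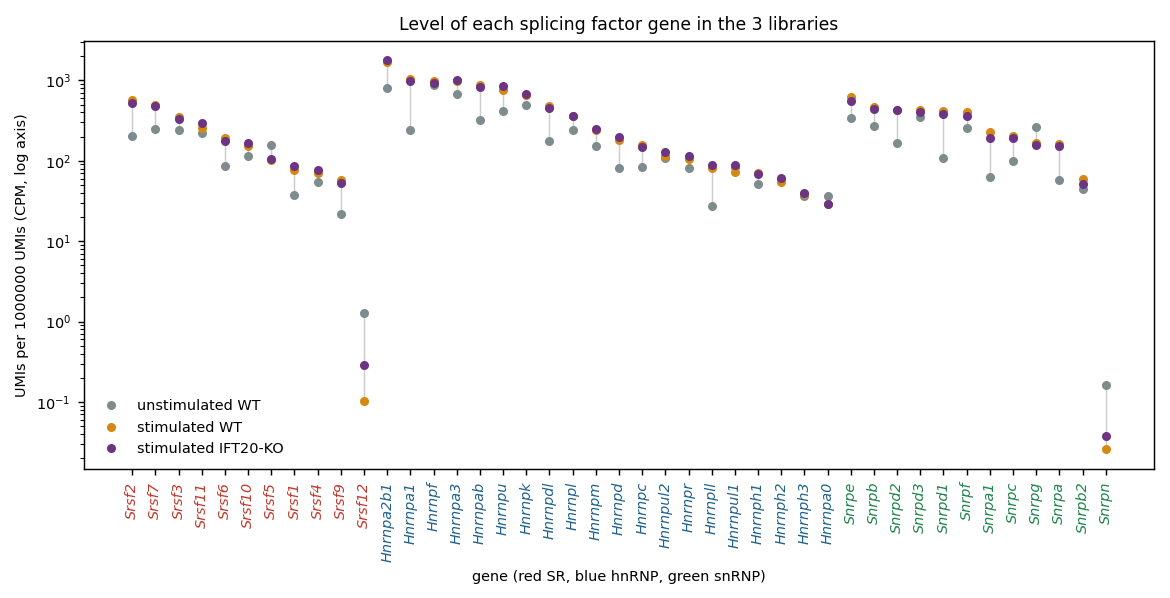
Level of each of the 43 genes in CPM on a log axis, with 1 point per library, unstimulated WT in grey, stimulated WT in orange and IFT20-KO in purple. Orange and purple points lie close together for most genes, and both lie above grey for most, with Srsf5 and Snrpg among the exceptions and Srsf12 and Snrpn far below the others.

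**Figure D2:**
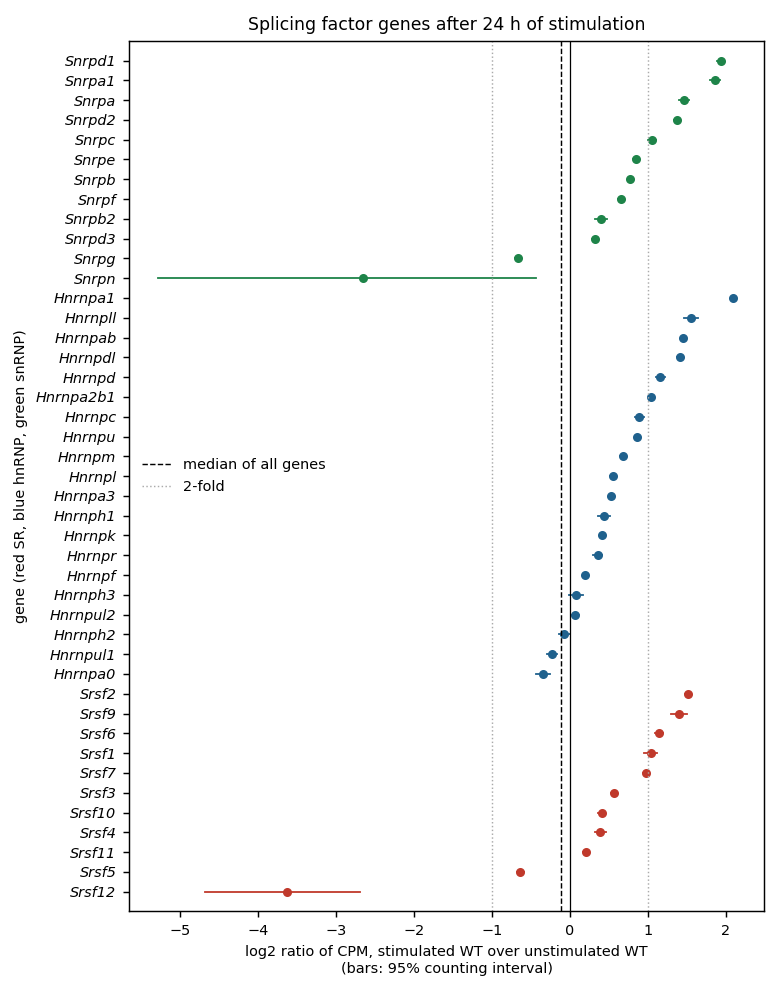
Log2 ratio of CPM, stimulated over unstimulated WT, for each gene within its family, with bars for the 95% counting interval, a dashed line at the median of all genes and dotted lines at 2-fold. Hnrnpa1 lies farthest to the right at 2.10, and 15 genes lie at or beyond the right dotted line.

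The sequences just before the transcription start are shown for 3 genes that stood at opposite ends of this comparison, the highest hnRNP and SR genes (Hnrnpa1 and Srsf2) and, among SR genes with at least 20 CPM, the one that was lower (Srsf5). They are the 250 bases upstream of the RefSeq start on GRCm38.p6, read 5′ to 3′ on the strand of the gene, at chr15:103240147-103240396 on the forward strand, chr11:116853095-116853344 on the reverse strand and chr12:80945249-80945498 on the forward strand. Capitals mark the motifs searched for, namely TATAAA, the E-box CACGTG and the ETS motif CCGGAAG, each on both strands.
Hnrnpa1: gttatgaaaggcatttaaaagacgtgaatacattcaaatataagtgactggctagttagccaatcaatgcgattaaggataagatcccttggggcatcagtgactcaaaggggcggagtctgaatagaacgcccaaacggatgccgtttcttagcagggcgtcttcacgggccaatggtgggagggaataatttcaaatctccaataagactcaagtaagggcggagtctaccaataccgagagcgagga
Srsf2: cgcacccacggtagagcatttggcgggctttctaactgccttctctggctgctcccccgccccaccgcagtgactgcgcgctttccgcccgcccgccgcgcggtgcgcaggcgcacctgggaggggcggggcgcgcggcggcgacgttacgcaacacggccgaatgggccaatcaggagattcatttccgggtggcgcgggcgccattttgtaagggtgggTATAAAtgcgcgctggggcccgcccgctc
Srsf5: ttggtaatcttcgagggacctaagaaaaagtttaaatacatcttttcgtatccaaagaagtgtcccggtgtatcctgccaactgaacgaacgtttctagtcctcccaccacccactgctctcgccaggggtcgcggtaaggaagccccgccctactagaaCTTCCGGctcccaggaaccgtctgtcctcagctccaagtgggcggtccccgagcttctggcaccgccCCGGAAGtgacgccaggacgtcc
Srsf2 has TATAAA at position −29 from its start. Srsf5 has the ETS motif at −90, there on the other strand, and at −23, and Hnrnpa1 has none of the 3. RefSeq windows from 250 bases before to 50 after a start were at hand for 39 of the 43 genes, 55 windows in all. The ETS motif was in 25.5% of these windows and in 8.86% of all 32851 windows, and the E-box in 12.7% and 7.15%. TATAAA was in 10.9% and 13.6%. The ETS motif was in windows of 10 genes, on both sides of the comparison. Srsf5 and Snrpg were lower with stimulation, and Snrpe, Snrpb2, Srsf11, Srsf4, Hnrnpd, Hnrnpf, Snrpc and Srsf7 were higher. The 32851 windows were not limited to genes measured here, and no share over measured genes was computed. The differences in share therefore cannot be read as particular to splicing factor genes. Several windows belong to 1 gene, and a match describes letters, not a bound factor.

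Of the SR genes, 9 of 11 were higher in stimulated WT cells and 4 of 11 at least 2-fold, with a median log2 ratio of 0.56. Srsf2, which binds exonic enhancers and also serves transcription elongation, was at 201 CPM (196 to 206) in unstimulated WT, 577 CPM (573 to 581) in stimulated WT and 519.6 CPM (515 to 524) in IFT20-KO cells. Its log2 ratio with stimulation of 1.52 (1.49 to 1.56) was the highest of the family. Srsf1, the founding member, which also controls alternative splicing in T cells, was at 37.0, 76.1 and 86.1 CPM in the same order and had a log2 ratio of 1.04 (0.96 to 1.12). Both stimulated libraries thus lay above the unstimulated one for these 2 genes. Srsf3 and Srsf7 encode small SR proteins that also link mRNA to nuclear export. Srsf3 was at 239, 353 and 326 CPM and had a log2 ratio of 0.56 (0.53 to 0.60). For Srsf7 the levels were 249.6, 492 and 483 CPM, with a log2 ratio of 0.98 (0.95 to 1.01), just short of 2-fold. Srsf9 (22.0, 58.2 and 53.0 CPM), whose protein is a short relative of SRSF1, had a log2 ratio of 1.41 (1.30 to 1.51), and Srsf6, whose protein is one of the longer SR proteins, had one of 1.14. The values of Srsf10, Srsf4 and Srsf11 were smaller, at 0.41, 0.39 and 0.21.

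Srsf5 went the other way. It was at 159 CPM (155 to 163) in unstimulated WT cells and at 102 CPM (100.5 to 104) and 104 CPM (102 to 106) in stimulated WT and IFT20-KO cells and had a log2 ratio of −0.63 (−0.68 to −0.59) with stimulation. In UMIs per cell, which are not scaled for depth, the order was reversed (0.734, 1.21 and 0.793), since stimulated cells held more UMIs in all. Of the Srsf5 transcript windows of 90 bases, 15.5% also occur in the transcripts of another gene, and the part of this in its count was not tested. Srsf12, whose protein counteracts other SR proteins, had 47, 12 and 31 UMIs, or 1.27, 0.103 and 0.291 CPM, and a log2 ratio of −3.63 (−4.68 to −2.69).

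The largest values among the hnRNP genes were in the group of hnRNP A/B and D proteins, of which 6 of 7 genes were higher and 5 of 7 at least 2-fold, with a median log2 ratio of 1.17. Hnrnpa1 (chromosome 15, 103240432 to 103246692), which silences exons and shuttles out of the nucleus with mRNA, was at 243 CPM (238 to 248) in unstimulated WT, 1041 CPM (1035 to 1046) in stimulated WT and 968 CPM (962 to 974) in IFT20-KO cells. Its log2 ratio with stimulation was 2.10 (2.07 to 2.13), or 4.28-fold, the highest of all 43 genes. It also has the most repeated sequence of the 43, since 43.7% of its 90-base windows occur in transcripts of 12 other genes, so its count is uncertain. Hnrnpa2b1, its close relative, was at 808, 1672 and 1781 CPM and had a log2 ratio of 1.05 (1.03 to 1.07), and shares no such window with another gene. Hnrnpab and Hnrnpdl had log2 ratios of 1.45 (1.43 to 1.48) and 1.42 (1.38 to 1.45). Hnrnpd, whose protein AUF1 also directs the decay of mRNAs with AU-rich elements, had one of 1.17 (1.11 to 1.22). Hnrnpa3 was at 0.53, and Hnrnpa0, whose protein binds AU-rich elements too, was lower, at 36.6, 29.0 and 29.2 CPM and a log2 ratio of −0.34 (−0.43 to −0.25).

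Hnrnpll and Hnrnpl, the regulators of CD45 exons, differed in size. Hnrnpll was at 27.5 CPM (25.9 to 29.3) in unstimulated WT, 81.0 CPM (79.4 to 82.7) in stimulated WT and 88.9 CPM (87.1 to 90.7) in IFT20-KO cells and had a log2 ratio with stimulation of 1.56 (1.46 to 1.65) or 2.94-fold. Hnrnpl was at 243, 356 and 357 CPM and had a log2 ratio of 0.55 (0.52 to 0.58), so the counting intervals of these 2 ratios do not overlap. The tables hold counts per gene, so exon use of Ptprc or of any other gene was not analysed here.

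The other hnRNP genes had log2 ratios from −0.23 to 0.90. Hnrnpu, whose protein binds RNA and chromatin in the nuclear scaffold, was at 418, 760.1 and 861 CPM and had a log2 ratio of 0.86 (0.84 to 0.89). Its relatives Hnrnpul1 and Hnrnpul2 were at 83.9, 71.7 and 89.3 CPM and 109, 115 and 127 CPM, with log2 ratios of −0.23 (−0.29 to −0.17) and 0.068 (0.018 to 0.12). The 3 genes of this group thus did not share a direction. Hnrnpc, whose protein binds uridine tracts and keeps cryptic exons out, was at 84.5, 157 and 149 CPM and had a log2 ratio of 0.90 (0.84 to 0.95). For Hnrnpk, a binder of cytosine-rich sequences, the levels were 496, 662 and 669 CPM and the log2 ratio 0.42 (0.39 to 0.44). Hnrnpm and Hnrnpr had log2 ratios of 0.69 and 0.36. The 4 genes of the hnRNP F/H group, whose proteins bind runs of guanines, had a median of 0.14. Hnrnpf was the hnRNP gene with most CPM in unstimulated cells and had a log2 ratio of 0.19 (0.18 to 0.21), with 32.6% of its windows shared with 6 other genes. Hnrnph1 was at 0.44, while Hnrnph2 (57.1, 54.5 and 60.8 CPM) at −0.067 (−0.14 to 0.0047) and Hnrnph3 at 0.084 (−0.0040 to 0.17) could not be told apart from 0 by counting error.

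The snRNP genes had a median log2 ratio of 0.81, with 10 of 12 higher and 5 of 12 at least 2-fold. Among the 8 genes of Sm core proteins, Snrpd1, which encodes SmD1, stood highest at 107 CPM (104 to 111) in unstimulated WT, 411 CPM (407 to 414) in stimulated WT and 383 CPM (379 to 386) in IFT20-KO cells and had a log2 ratio of 1.94 (1.89 to 1.98). Snrpb, which encodes SmB, was at 269, 462 and 446 CPM and had a log2 ratio of 0.78 (0.75 to 0.81). The ratios of Snrpd2, Snrpe, Snrpf and Snrpd3 were 1.37, 0.85, 0.65 and 0.32. These proteins sit in the same ring, and the ratios of their genes, with the barely detected Snrpn left out, nonetheless ran from −0.66 to 1.94. The lowest of these was that of Snrpg, at 267, 168 and 156 CPM and −0.66 (−0.70 to −0.63), of whose windows 14.7% occur in 1 other gene. In UMIs per cell Snrpg was at 1.23 in unstimulated and 1.99 in stimulated WT cells, again in reversed order. Snrpn, the imprinted relative of Snrpb known from neurons, had 6, 3 and 4 UMIs in the whole libraries and a log2 ratio of −2.66 (−5.28 to −0.43).

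The genes of proteins that mark single snRNPs were also higher. Snrpa and Snrpc encode the A and C proteins of the U1 snRNP, which recognises the 5′ splice site. Snrpa was at 58.1, 161 and 153 CPM and had a log2 ratio of 1.47 (1.41 to 1.54), and Snrpc at 99.2, 206 and 193 CPM and had a log2 ratio of 1.05 (1.00 to 1.10). Snrpa1 and Snrpb2 encode the A′ and B″ proteins of the U2 snRNP, which binds the branch point. Snrpa1 was at 62.0 CPM (59.5 to 64.5) in unstimulated WT, 226 CPM (223 to 229) in stimulated WT and 192 CPM (189 to 195) in IFT20-KO cells and had a log2 ratio of 1.87 (1.80 to 1.93). Snrpb2 was at 45.1, 59.7 and 51.7 CPM and had a log2 ratio of 0.40 (0.33 to 0.48), far below its partner.

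Cells of a library differ in depth, and the families did not differ alike across that range. In cells with 5000 to under 15000 UMIs (3127 unstimulated and 4355 stimulated WT cells), the median log2 ratio with stimulation over the 41 genes with at least 20 CPM was 0.71, against 0.099 over all genes at that level. At least 2-fold higher were 12 of the 41 genes against 16.5% of all genes, and at least 2-fold lower 0 against 14.9%. In cells under 5000 UMIs (4888 and 2387 cells), the median was 0.50 against 0.35, with 7 genes at least 2-fold higher against 26.8% of all genes and 1, Snrpg, lower against 10.2%. The shallow stimulated WT cells had a median of 10.2% mitochondrial UMIs, compared with 2.44% in the shallow unstimulated cells and 1.34% in stimulated WT cells of 5000 to under 15000 UMIs, and the part of this difference in the ratios was not tested.

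The family medians diverged in these shallow cells, although the ratios overlapped. Those of snRNP genes ran from −1.20 to 1.28 (5 of 11 higher). The SR ratios ran from −0.26 to 1.30 (9 of 10 higher) and the hnRNP ratios from −0.58 to 2.12 (15 of 20 higher). In the shallow cells 12 of the 41 genes were lower after stimulation, among them Snrpd3 at −0.56 and Hnrnpf at −0.46, both higher over all cells. The median log2 ratio of the snRNP genes was −0.16 in cells under 5000 UMIs and 0.76 in cells with 5000 to under 15000 UMIs, while that of the SR genes was 0.75 and 0.70 and that of the hnRNP genes 0.53 and 0.54. Snrpe, for example, was at 330.4 and 296 CPM in the shallow unstimulated and stimulated WT cells and at 348 and 589 CPM in the deeper ones. As a share of UMIs, snRNP genes held 0.195% of shallow unstimulated and 0.184% of shallow stimulated WT cells, but 0.206% and 0.343% in the deeper cells. Hnrnpll was higher in both, with log2 ratios of 2.12 and 1.39.

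**Figure D3:**
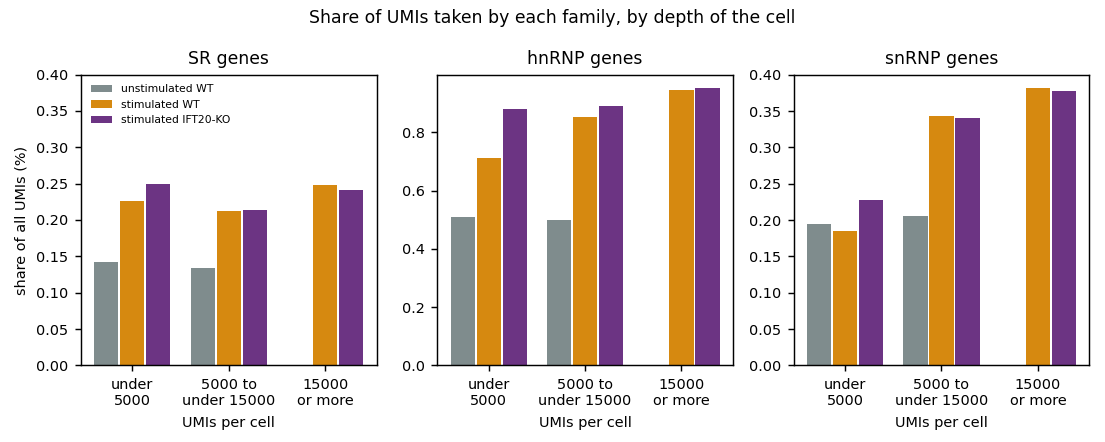
Share of all UMIs, in percent, taken by the SR, hnRNP and snRNP genes in cells of 3 depth ranges, with 1 bar per library and a taller axis for the hnRNP genes (unstimulated WT is not drawn at 15000 UMIs or more, where it had 16 cells). The snRNP share of stimulated WT cells goes from 0.184% to 0.381% across the ranges, while their SR share stays between 0.213% and 0.249%.

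As CPM over all kept cells, the IFT20-KO and WT libraries, both stimulated, differed little in these genes. Scaling moved the ratios of all genes together. Over all 13898 genes the median for IFT20-KO over WT was 0.14 as CPM, −0.028 with median-ratio scaling and −0.49 in UMIs per cell, and with stimulation it was −0.11, 8.4e-05 and 1.24. The 43 genes took 1.47% of the UMIs of IFT20-KO cells and 1.49% of those of WT cells, and 112 and 175 UMIs per cell. For IFT20-KO over WT the median log2 ratio was −0.011, with 21 genes higher and 22 lower, against 0.14 over all 13898 genes and 0.0014 over the 3435 genes with at least 50 CPM. At least 1.2-fold higher were 3 of the 43 genes, while 36.1% of all genes were, and at least 1.2-fold lower were 0, while 8.51% of all genes were. The 3 were Srsf12 and Snrpn, both near the limit of detection, and Hnrnpul1. Of the 41 genes with at least 20 CPM, 1 was higher by that fold and 0 lower, against 20.5% and 3.33% of the 6123 genes at that level. Among the 3435 genes with at least 50 CPM the shares were 13.5% and 3.81%.

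Hnrnpul1, whose protein also takes part in the response to DNA breaks, was at 71.7 CPM (70.1 to 73.2) in stimulated WT and 89.3 CPM (87.5 to 91.1) in IFT20-KO cells, a log2 ratio of 0.32 (0.27 to 0.36). Next were Srsf11 at 219.9, 254 and 292 CPM with a ratio of 0.20 (0.18 to 0.22), Hnrnpu at 0.18 (0.17 to 0.19), Srsf1 at 0.18 (0.14 to 0.22) and Hnrnph2 at 0.16 (0.11 to 0.21). All 3 genes of the hnRNP U group were higher in IFT20-KO cells as CPM, but with median-ratio scaling 1 of them was lower and in UMIs per cell all 3 were. The lowest were those of the U2 snRNP proteins, with −0.23 (−0.26 to −0.21) for Snrpa1 and −0.21 (−0.26 to −0.15) for Snrpb2. Srsf2, Snrpf (254, 399 and 361 CPM) and Srsf9 followed, at −0.15 (−0.17 to −0.13), −0.14 (−0.16 to −0.12) and −0.13 (−0.19 to −0.083). The genes with the largest values after stimulation had small ones here, such as Hnrnpa1 at −0.10 (−0.12 to −0.093), Snrpd1 at −0.10 (−0.12 to −0.083) and Hnrnpll at 0.13 (0.092 to 0.17), and their levels in IFT20-KO cells stayed well above those in unstimulated WT cells.

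By family, the medians were 0.020 for SR, 0.029 for hnRNP and −0.10 for snRNP genes. Of the 12 snRNP genes 11 were lower in IFT20-KO cells, from −0.23 to −0.011, and the exception was Snrpn with 3 and 4 UMIs. Together the snRNP genes took 0.357% of the UMIs in stimulated WT and 0.333% in IFT20-KO cells. Of the 20 hnRNP genes 14 were higher and 6 lower, beside 9463 higher and 4435 lower of all 13898 genes. The median of all genes was exceeded by 4 of the 20. The hnRNP median was below 0 with median-ratio scaling (−0.14) and in UMIs per cell (−0.60), as was that of the SR genes (−0.14 and −0.61). Of the 13920 kept IFT20-KO cells 6958 had under 5000 UMIs, compared with 2387 of 9903 stimulated WT cells. The libraries were therefore also compared within ranges of depth, which was decided once the depths were known. The range under 5000 UMIs was not matched at its lower end. Barcodes reached down to 709 UMIs in stimulated WT and 1493 in IFT20-KO. Of the kept cells, 421 and 0 had too few UMIs for the thinning to 1400 UMIs described below. The part of this in the ratios was not tested.

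Among cells under 5000 UMIs, 10 of the 11 snRNP genes with at least 20 CPM were higher in IFT20-KO cells. Their median was 0.31, the reverse of the value over all cells, against 0.0067 over all genes at that level. In cells with 5000 to under 15000 UMIs the snRNP median was −0.028, with 3 higher and 8 lower, and in cells with 15000 or more UMIs −0.037. Snrpa1 had ratios of 0.21 (0.082 to 0.35), −0.15 (−0.19 to −0.11) and −0.14 (−0.18 to −0.096) in the 3 ranges, and for Hnrnpul1 they were 0.12 (−0.0070 to 0.25), 0.22 (0.15 to 0.28) and 0.14 (0.072 to 0.21). Snrpa1 was thus lower in the deeper cells only, and Hnrnpul1 was above 0 by more than counting error in both deeper ranges. The Hnrnpul1 ratio over all cells, 0.32, was larger than in any single range, and in each range the gene was short of 1.2-fold. Over the 41 genes, 21 were at least 1.2-fold higher among the shallow cells against 22.3% of all genes, and 0 lower against 19.7%. In the range of 5000 to under 15000 UMIs 0 were higher by that fold against 6.65% of all genes, and 0 lower against 4.65%. The medians over the 41 genes were 0.27, 0.042 and −0.0062 from the shallow to the deep range. Over all genes with at least 20 CPM they were 0.0067, 0.026 and 0.0024. Shallow cells held a median of 10.2% mitochondrial UMIs in stimulated WT and 5.60% in IFT20-KO, and whether this bears on the ratios was not tested.

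**Figure D4:**
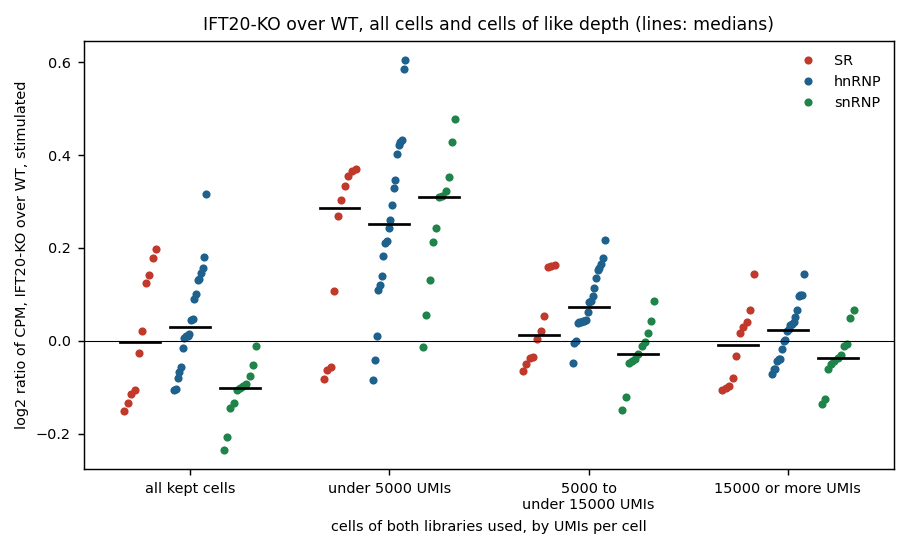
Log2 ratio of CPM, IFT20-KO over WT, of the 41 genes with at least 20 CPM, over all kept cells and within 3 ranges of UMIs per cell, with 1 point per gene and a line at each family's median. The snRNP median lies at −0.10 over all cells, at 0.31 in cells under 5000 UMIs and near 0 in the deeper ranges.

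Longer genes tended to have the higher IFT20-KO ratios. Across the 41 genes, Spearman's rho between the median length of a gene's coding transcripts and its ratio was 0.61, and across 12257 genes with a known length it was 0.26. Within the depth ranges rho over the 41 genes was −0.18, 0.53 and 0.35 from shallow to deep. With stimulation the rho was −0.24 over the 41 and −0.13 over all genes. These are descriptions across genes of the same libraries, not across independent samples. Whether family or length goes with the ratio was not tested.

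The spread from cell to cell, as measured here, was close to that of other genes. Means in thinned cells were low, such as 0.052, 0.11 and 0.14 UMIs per cell for Srsf1 in the 3 libraries. A low mean holds this measure near 1, and genes were not matched by mean, so the likeness says little. The spread was measured as the variance of a gene's counts over their mean in cells thinned to 1400 UMIs, where 1 is pure sampling. The median over the genes with at least 50 CPM was 1.01, 1.04 and 1.04 in the 3 libraries in the order above, compared with 1.01, 1.03 and 1.03 over all genes at that level. The largest value of a splicing factor gene was 1.10 for Hnrnpa2b1 in unstimulated WT, 1.25 for Hnrnpa1 in stimulated WT and 1.16 for Hnrnpab in IFT20-KO cells, and 0 of them lay above the 90th percentile of all genes in any library.

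Other genes of the pathway were followed in 10 lists with 133 genes in all. Among these, 24 (18.0%) were at least 2-fold higher and 7 (5.26%) at least 2-fold lower in stimulated WT cells, against 18.7% and 23.7% of all genes. Most of the 133 reached 20 CPM, and of all genes at that level 18.8% and 16.5% were. The counts of each list below are read beside these shares. The list with the highest median, 1.29, was that of snRNP assembly, the SMN complex and the methylosome that load Sm proteins onto small nuclear RNAs, with 8 of 13 genes at least 2-fold higher and 0 lower. Its highest gene with at least 20 CPM was Gemin8, a small subunit of the SMN complex, at 3.39, 29.5 and 28.9 CPM and a log2 ratio of 3.12 (2.87 to 3.39), and the lowest was Gemin7 at −0.012 (−0.081 to 0.058). Smn1 itself was at 31.3, 80.5 and 73.5 CPM and had a log2 ratio of 1.36 (1.27 to 1.45), and Prmt5, which methylates Sm proteins, at 26.6, 65.1 and 63.0 CPM and 1.29, both named here after their values were seen.

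Proteins of the snRNPs outside the Snrp symbols were mostly higher as well. The median was 0.78 for 10 LSm genes (3 at least 2-fold higher, led by Lsm2 at 1.43 (1.37 to 1.49), the lowest being Lsm5 at 0.072). For 10 genes of the SF3 complexes of the U2 snRNP it was 0.75, with 3 at least 2-fold higher, from −0.52 (−0.55 to −0.50) for Sf3b1 to 1.40 (1.35 to 1.46) for Phf5a. For 13 genes of U5 and the tri-snRNP it was 0.75, also with 3, from −0.23 (−0.31 to −0.16) for Prpf6 to 1.52 (1.48 to 1.55) for Snu13. The 7 Snrnp genes had a median of 0.50, 0 of them at least 2-fold either way, from −0.60 for Snrnp48 to 0.98 for Snrnp40. Snrnp48 was at 0.69 in cells under 5000 UMIs and at −0.54 in cells with 5000 to under 15000 UMIs. The 8 genes of 3′ splice site recognition had a median of 0.093 with 2 at least 2-fold higher and 2 lower, the highest being U2af1 at 1.28 (1.24 to 1.32) and the lowest with at least 20 CPM Sf1 at 0.068. In cells under 5000 UMIs the medians over genes with at least 20 CPM were smaller for the LSm list (0.070 over 9 genes, with 2 lower, such as Lsm5 at −1.07, and Lsm2 at 0.60) and for the SF3 list (0.14 over 10 genes, with 3 lower), while in cells with 5000 to under 15000 UMIs they were 0.85 and 0.75. The 13 genes of the Prp19 complex and late helicases had over all cells a median of −0.017 with 1 higher, Prpf19 at 1.42 (1.36 to 1.47), and Aqr lowest at −0.64. Aqr too was higher in cells under 5000 UMIs, at 0.36, and at −0.78 in cells with 5000 to under 15000 UMIs. The medians over all genes with at least 20 CPM were 0.35 and 0.099 in these ranges, so a ratio above 0 was common in the shallow cells.

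The kinases of SR proteins were lower over all cells, and in shallow ones their median was above 0 but not above that of all genes. All 7 that were measured had ratios below 0, with a median of −0.57 and 3 at least 2-fold lower. In UMIs per cell, without scaling, their median was 0.79, against 1.24 over all genes. With median-ratio scaling 1 of the 7 was above 0. Of all 13898 genes 7510 were below 0 and 23.7% at least 2-fold lower, and of those with at least 20 CPM 16.5% were at least 2-fold lower. The lowest was Clk4 at 49.6, 18.2 and 24.0 CPM and −1.45 (−1.54 to −1.36), and the highest was Srpk1 at 214, 205 and 213 CPM and −0.062 (−0.098 to −0.025). For the 6 kinases with at least 20 CPM the median was 0.31 in cells under 5000 UMIs, with 5 higher, and −0.95 in cells with 5000 to under 15000 UMIs, with 5 lower. Over all genes with at least 20 CPM the medians in these ranges were 0.35 and 0.099. Clk4 had ratios of 0.38 and −1.51 there, and Clk3 was at −0.68 in cells under 5000 UMIs. The 20 genes of SR-related proteins had a median of −0.0016, which was 0.46 in cells under 5000 UMIs, with 19 of 20 higher, and −0.060 in cells with 5000 to under 15000 UMIs, and their lowest, Son, which encodes a large protein of nuclear speckles, was at 407, 149.9 and 171 CPM and −1.44 (−1.47 to −1.41), while Rnps1 was highest at 0.86. The 32 other splicing regulators had a median of 0.33, with 4 at least 2-fold higher and 1 lower, from −1.51 (−1.60 to −1.41) for Mbnl2 to 1.29 (1.25 to 1.33) for Sfpq among genes with at least 20 CPM.

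**Figure D5:**
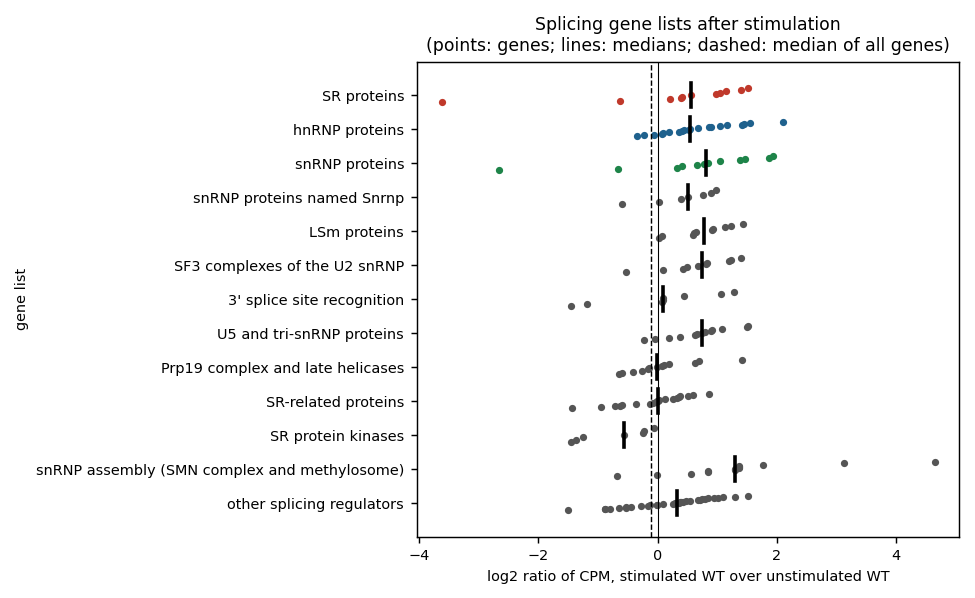
Log2 ratio of CPM, stimulated over unstimulated WT, of each gene in the 3 families and in 10 other lists of splicing genes, with a line at each list's median and a dashed line at the median of all genes. The list of snRNP assembly lies farthest right with a median of 1.29, and the kinases of SR proteins farthest left with −0.57.

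Between IFT20-KO and WT, 23 of the 133 genes (17.3%) were at least 1.2-fold higher and 3 (2.26%) lower, compared with 36.1% and 8.51% of all genes. Among genes with at least 20 CPM, as most of the 133 had, the shares were 20.5% and 3.33%, nearer to those of the lists. The widest ratios were those of Mbnl1, a splicing factor of the muscleblind family, at 281, 194 and 396 CPM and 1.03 (1.01 to 1.05), and of Pcbp1, which binds cytosine-rich RNA, at 440.3, 793 and 439 CPM and −0.86 (−0.87 to −0.84). Both kept their direction at each depth, with 0.19 (0.14 to 0.24), 0.67 (0.63 to 0.71) and 0.70 (0.66 to 0.74) for Mbnl1 and −0.40 (−0.47 to −0.32), −0.79 (−0.81 to −0.77) and −0.78 (−0.80 to −0.75) for Pcbp1 from shallow to deep cells. The SR-related genes had a median of 0.20, with 7 of 20 at least 1.2-fold higher, led by Luc7l2 at 0.52 (0.50 to 0.55), and the kinases one of 0.28, with 4 of 7, led by Srpk2 at 0.49 (0.43 to 0.55). In UMIs per cell both medians were below 0, at −0.43 and −0.35. As CPM among cells under 5000 UMIs those medians were −0.11 and −0.18, and among cells with 5000 to under 15000 UMIs 0.12 and 0.087. Luc7l2 was at −0.28 (−0.33 to −0.23), 0.29 and 0.16 and Srpk2 at −0.23 (−0.37 to −0.087), 0.30 and 0.25 from shallow to deep cells, so both were lower in the shallow IFT20-KO cells. In the U5 and tri-snRNP list Prpf8, the core of the spliceosome, was highest at 0.43 (0.40 to 0.46) and Txnl4a lowest at −0.32 (−0.36 to −0.28). From shallow to deep cells Prpf8 was at 0.18, 0.25 and 0.13, and Txnl4a at 0.30 (0.091 to 0.52), −0.21 and −0.26, so that Txnl4a was higher in the shallow IFT20-KO cells. For Mbnl1, Pcbp1, Luc7l2, Srpk2, Prpf8 and Txnl4a the ratio over all cells was thus larger in size than in any single range. In the assembly list Gemin5 was highest at 0.27 (0.21 to 0.33) and Gemin6 lowest at −0.30 (−0.36 to −0.24), with a median of −0.049. From shallow to deep cells Gemin5 was at 0.21, 0.20 and 0.15. Gemin6 was at −0.17 (−0.45 to 0.12), −0.031 (−0.13 to 0.067) and −0.22 (−0.31 to −0.13), so its interval spanned both signs except in the deepest cells. Over all cells the medians of the LSm, SF3, Snrnp, 3′ splice site and Prp19 lists were −0.056, 0.022, 0.0024, −0.021 and −0.0042. Over all cells 0 genes of these 5 lists were at least 1.2-fold either way. In cells under 5000 UMIs the medians over genes with at least 20 CPM were 0.30, 0.32, 0.11, 0.19 and 0.20, against 0.0067 over all genes at that level. There some genes were past 1.2-fold, such as Lsm8 at 0.59 and Snrnp48 at −0.42, against 22.3% of all genes higher and 19.7% lower. In cells with 5000 to under 15000 UMIs the medians were 0.0022, 0.063, 0.062, 0.039 and −0.015.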

How the data were processed

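The authors aligned reads to the mouse genome mm10 and counted UMIs with Cell Ranger (version 3.1.0 per the file headers), and deposited unnormalized counts of UMIs per gene and cell barcode. The count per library was 37133949 to 116979076 UMIs in kept cells. No doublets were removed.

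From these counts, UMIs were summed over the kept cells of a library and divided by its total (CPM). Intervals are exact Poisson for CPM and exact binomial for ratios, both at 95%, and a count of 0 was set to 3. With 1 library per group there is no test, and counts of genes past 2-fold (stimulation) or 1.2-fold (IFT20-KO) are read beside the share of all genes past them. Genes and lists were chosen with earlier results of these data known. Named genes are 17 chosen for their role, the 6 highest and lowest with stimulation and the 5 highest and lowest for IFT20-KO among genes with 20 CPM, 27 in all, and the highest and lowest of each other list. Shared windows of 90 bases were counted in GENCODE M21 transcripts. The script was checked on simulated data. Alternatives were other scalings, cell filters, thinning, minimum counts, leaving out the 6% of cells with most UMIs, and leaving out pseudogene symbols, of which there were 0. Python 3.11.15, numpy 2.4.6, scipy 1.17.1 and pandas 2.3.3 were used.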

Additional observations from a re-analysis of the deposited data

How the results depend on the processing

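No paired analysis was possible because each group has 1 library, and for the same reason no library could be left out. The median log2 ratio with stimulation stayed above 0 under every alternative, at 0.77 with median-ratio scaling, 0.56 as the mean of per-cell fractions, 2.01 in UMIs per cell without scaling, 0.54 with a total that leaves out mitochondrial and ribosomal protein genes, 0.62 in cells with 5000 or more UMIs and 0.59 in cells thinned to 1400 UMIs. Over the 41 genes with at least 20 CPM it was 0.50 in cells under 5000 UMIs and 0.71 in cells with 5000 to under 15000 UMIs, both chosen once depths were known. The 15 genes at least 2-fold higher became 39 in UMIs per cell and 7 in cells under 5000 UMIs. In UMIs per cell 11588 of all 13898 genes were higher, with a median of 1.24. In cells under 5000 UMIs 26.8% of all genes with at least 20 CPM were at least 2-fold higher. The 2 at least 2-fold lower, Srsf12 and Snrpn, became 0 with a minimum of 100 UMIs, which leaves both out. Both are also outside the 41 genes of the depth ranges, where the count was 1 (Snrpg) in cells under 5000 UMIs and 0 in cells with 5000 to under 15000 UMIs.

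The median of IFT20-KO over WT was −0.011 as CPM over all cells, and its sign and size depended on the setting. It was −0.18 with median-ratio scaling, −0.64 in UMIs per cell, 0.026 as per-cell fractions, 0.010 in thinned cells, 0.27 in cells under 5000 UMIs and 0.042 in cells with 5000 to under 15000 UMIs. The 3 genes at least 1.2-fold higher became 5 as per-cell fractions, 1 in UMIs per cell, 7 in thinned cells, 1 with a minimum of 100 UMIs, 21 in cells under 5000 UMIs and 0 in cells with 5000 to under 15000 UMIs. The 0 at least 1.2-fold lower became 12 with median-ratio scaling, 1 as per-cell fractions, 41 in UMIs per cell and 1 without the 6% of cells with most UMIs. Of all 13898 genes, 12199 were lower in UMIs per cell (median −0.49) and 7442 with median-ratio scaling (median −0.028). Shares of all genes past the folds are not given for these scalings or for thinned cells. Such counts therefore cannot be read as particular to these genes. The 11 of 12 snRNP genes that were lower became 1 of 11 in cells under 5000 UMIs. Using all barcodes, or a stricter filter (over 1000 genes, mitochondrial share below 10%), moved none of these counts by over 1.5 times and turned neither median.

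Of the 27 named genes, those listed below changed sign, and the cause was not tested. Ratios whose counting interval over all cells spanned both signs were left out of the list, and some of these changed sign too. For IFT20-KO over WT, Srsf5 was at 0.0203 over all cells and at −0.057, −0.037 and −0.11 from shallow to deep cells. Hnrnpl and Hnrnpa0 were slightly higher in IFT20-KO cells as CPM but lower in UMIs per cell. Hnrnph2 was lower with stimulation as CPM but higher in UMIs per cell. The listed ratios follow. With stimulation, ratios in UMIs per cell were 0.72 for Srsf5, 0.69 for Snrpg, 1.01 for Hnrnpa0 and 1.13 for Hnrnpul1, where stimulated cells held more UMIs. In cells under 5000 UMIs they were −0.13 for Hnrnpk, −0.21 for Snrpb, 0.52 for Hnrnpul1, −0.11 for Hnrnpul2, −0.26 for Snrpb2 and −0.48 for Snrpf. In thinned cells Hnrnpul1 was at 0.0072, and without mitochondrial and ribosomal protein genes in the total Hnrnpul2 was at −0.044. For IFT20-KO over WT, ratios in UMIs per cell were −0.49 for Hnrnpll, −0.54 for Hnrnpa2b1, −0.61 for Hnrnpk, −0.45 for Hnrnpu, −0.45 for Srsf1, −0.31 for Hnrnpul1, −0.47 for Hnrnph2, −0.48 for Hnrnpul2 and −0.43 for Srsf11, and with median-ratio scaling −0.031 for Hnrnpll, −0.074 for Hnrnpa2b1, −0.15 for Hnrnpk, −0.0070 for Hnrnph2 and −0.018 for Hnrnpul2. In cells under 5000 UMIs they were −0.042 for Hnrnpll, 0.40 for Hnrnpa1, 0.24 for Hnrnpc, 0.35 for Srsf2, 0.27 for Srsf3, 0.11 for Srsf7, 0.32 for Snrpb, 0.31 for Snrpd1, 0.056 for Snrpa, 0.31 for Snrpc, 0.21 for Snrpa1, 0.13 for Snrpg, −0.062 for Srsf11, 0.43 for Snrpf and 0.37 for Srsf9. In cells with 5000 to under 15000 UMIs they were 0.038 for Hnrnpa1, 0.0045 for Srsf7, 0.044 for Snrpb, 0.016 for Snrpc and 0.022 for Srsf9, and in cells with 5000 or more UMIs 0.017 for Snrpb. Srsf7 was at 0.040 as per-cell fractions and 0.010 in thinned cells. Depth limits Srsf12 and Snrpn most, with 12 and 3 UMIs in stimulated WT cells. Cells of 1 library are not replicates, so the spread between mice or between library preparations was not measured.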
